A study of Mus musculus with 15 samples.

Results

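The DEAD-box (DDX) and DEAH-box (DHX) genes encode RNA helicases, enzymes that spend ATP to open RNA duplexes or to remove proteins from RNA. The members described here are the protein-coding genes whose GENCODE M21 symbol begins with Ddx or Dhx followed by a number, which gave 53 of the 55536 matched gene entries, 37 DDX and 16 DHX genes. They were measured in OT-I cells, CD8+ T cells that carry a transgenic T cell receptor for the ovalbumin peptide SIINFEKL, on a background lacking Rag1 or Rag2 per the study's methods. There were 15 RNA-seq libraries in 3 groups of 5: Naive cells, taken from OT-I mice without transfer; Ag cells, transferred into wild-type C57BL/6J recipients that then received the peptide with control rat IgG; and Ag+Costim cells, transferred and given the peptide with agonist antibodies to OX40 (CD134, clone OX-86) and 4-1BB (CD137, clone 3H3). Transferred cells were sorted from spleen and lymph nodes on day 4 per the labels. The Naive cells thus differ from both other groups in transfer as well as in antigen, and a fold against Naive combines these. The labels do not tie replicate numbers to named animals, so p-values measure the spread between these libraries.

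DEAD-box proteins act locally, prying apart short stretches of RNA or clamping onto it, and many serve 1 step of ribosome assembly, splicing, nuclear export or translation. DEAH-box proteins walk along RNA and are often switched on by proteins with a G-patch domain. A smaller group, led by RIG-I (gene Ddx58), detects viral RNA in the cytoplasm. T cells that leave the resting state increase RNA and protein synthesis, processes in which most of these enzymes take part.

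The deposited gene table held 4865952 to 25280667 estimated counts per library from 24713497 to 54037294 sequenced reads. The counts came to 16.9% (Ag 3) to 53.6% of the number of reads. As estimates, they need not equal the number of reads used. Values are given as counts per 1000000 (CPM), and fold changes on the log2 scale from edgeR with its SE; values listed per library run from replicate 1 to replicate 5. CD8 T cell markers summed to 3926 to 7573 CPM over the 15 libraries, and B cell markers, which a sorted CD8 population should hold little of, to 559 to 1553 CPM. The B cell medians were 835 CPM in Naive, 1280 CPM in Ag and 688 CPM in Ag+Costim. Naive libraries held 595 to 975 CPM despite the Rag-deficient background given in the methods, and the source was not tested. Erythroid markers reached 1309 CPM in Ag 3. Lane 2 held the Ag libraries together with Ag+Costim 1 to 3, and lane 3 the Naive libraries together with Ag+Costim 4 and 5, so lane and group cannot be told apart in the comparison of Ag with Naive. In bulk libraries, fewer cells of a type and less RNA per cell cannot be told apart.

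The 53 members together took 0.412% to 0.543% of all counts in a library. Their summed level was 4826 ± 222 CPM in Naive, 4328 ± 374 CPM in Ag and 5232 ± 190 CPM in Ag+Costim (SD, n = 5 each). The members varied most between libraries in Ag, with a median coefficient of variation of 21.1%, against 15.4% in Naive and 8.48% in Ag+Costim. All tested genes showed the same order, with 38.5%, 25.5% and 12%. The Ag libraries fell into unlike sets. Over genes with 50 or more counts in a pair, a chi-square of their counts per degree of freedom was 8.7 for Ag 1 and 4. It was 24.6 for Ag 2 and 5, and 171 to 249 between these pairs. Ag 3 gave 101 to 138 against the others. A mean over Ag thus averages unlike libraries and need not describe a single library. Levels were compared between genes after division of each transcript's count by its length, scaled to a sum of 1000000 per library. On this scale the 5 highest members were Ddx5, Ddx39, Ddx39b, Dhx15 and Ddx24 in every group, and their part of the members' summed level was 40.5% in the Naive group, 43.9% with antigen and 47.4% with costimulation. Their order changed: Ddx5, a splicing and transcription cofactor, led in Naive at 348, ahead of the export helicase Ddx39 at 222, whereas Ddx39 led in Ag+Costim at 549.6 and Ddx5 stood at 190.5.

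**Figure D1:**
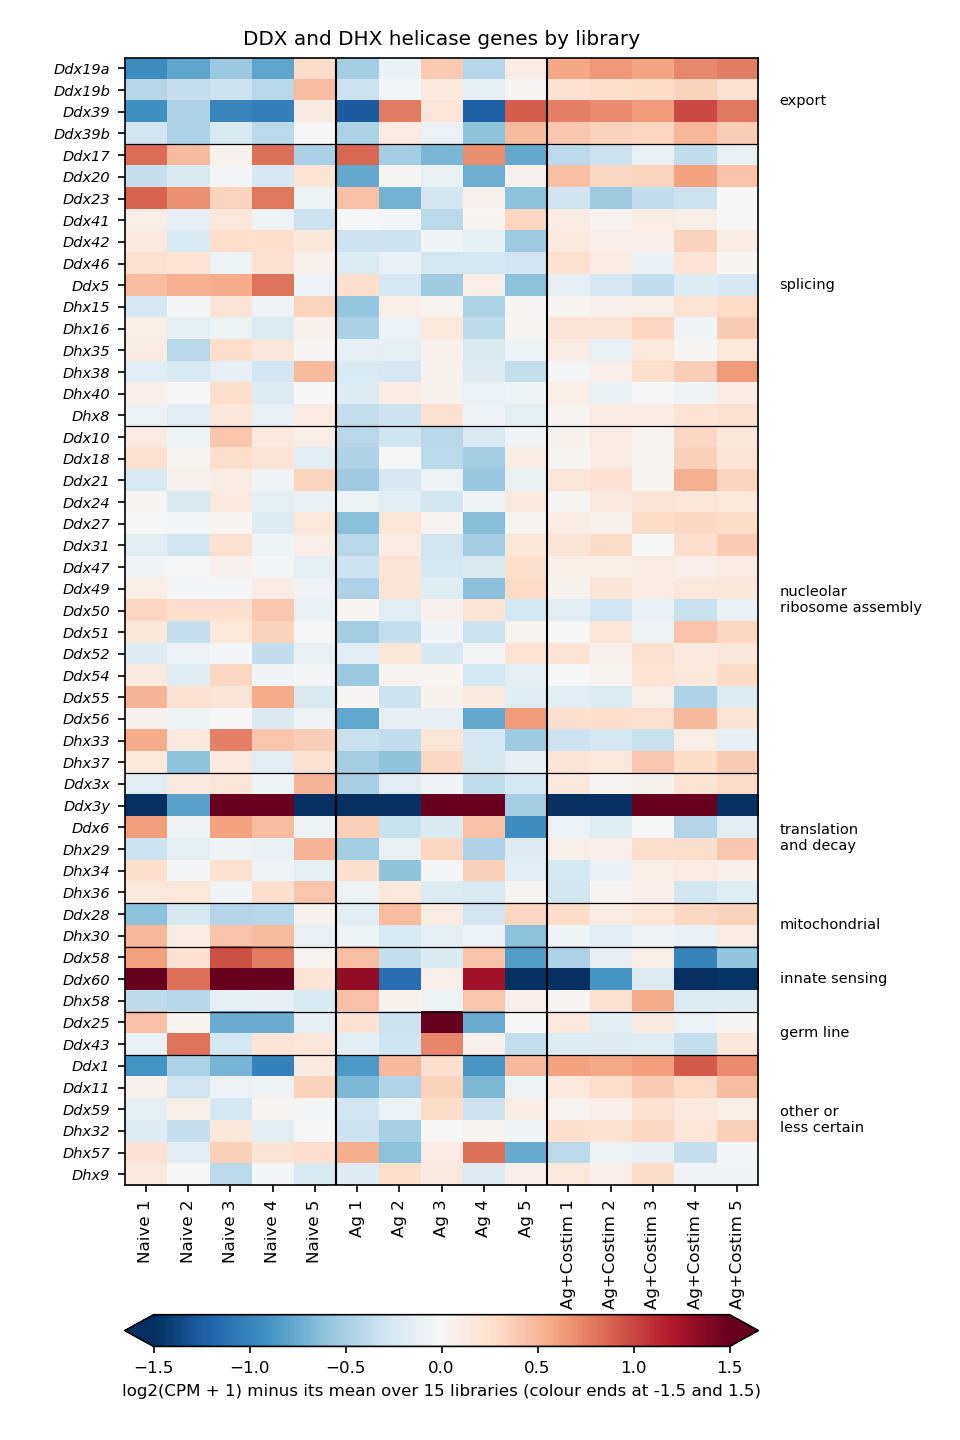
Heat map of the 52 tested helicase genes (rows, grouped by role) in the 15 libraries (columns), coloured by log2(CPM + 1) minus the gene's mean over all libraries. The 5 Ag columns differ from each other more than the Ag+Costim columns do, with a median coefficient of variation of 21.1% against 8.48%.

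Antigen alone was compared with the naive state to ask which helicases moved with priming. None of the 52 tested members rose and 5 fell (9.62%), beside 3.05% of all 17366 tested genes higher and 3.66% lower. The 5 were Dhx33 (-0.73 ± 0.16, adjusted p = 0.018), a factor of ribosomal RNA synthesis, Ddx5 (-0.66 ± 0.18, adjusted p = 0.044), Dhx30 (-0.52 ± 0.14, adjusted p = 0.038), a mitochondrial RNA helicase, Ddx10 (-0.43 ± 0.11, adjusted p = 0.032), a small-subunit assembly factor, and Ddx46 (-0.36 ± 0.09, adjusted p = 0.038), a helicase of the U2 step of splicing. At an unadjusted p under 0.05, 2 members were higher, Ddx28 and Dhx58 (all genes 15.2%), and 13 were lower (all genes 13.5%). DESeq2 called 1 higher and 10 lower, beside 8.56% and 10% of the genes it tested. The log2 fold change was above 0 in 12 of 52 members (23.1%), beside 55.8% of all genes, and the members' median was -0.16 beside 0.08. The CPM of the groups did not overlap for 1 member higher, Dhx58, and 1 lower, Ddx46 (all genes 1.76% and 2.09%). Calls depended on single libraries: 0 were made without Naive 1 or without Naive 3, 1 without Ag 2 or without Naive 4, 2 without Ag 5, 3 without Ag 3, and 11 (3 higher, 8 lower; all genes 12.6% and 8.9%) without Naive 5. All genes called higher and lower were 92 and 163 without Naive 1, 93 and 174 without Naive 3, and 103 and 170 without Naive 4. They were 260 and 253 without Ag 2, 369 and 398 without Ag 5, and 562 and 664 without Ag 3. No member was called with only the Ag and Naive libraries in the fit or with lane as a term. Over all genes the former gave 0 higher and 6 lower, and the latter 0 in either direction.

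Ag+Costim was compared with Ag to ask what the agonist antibodies added to antigen. The edgeR test called 0 members in either direction, and 0.0288% of all genes higher and 0.00576% lower. At an unadjusted p under 0.05, 21 members were higher (40.4%), beside 7.28% of all genes, and 1 was lower, Ddx60, beside 19.5%. The log2 fold change was above 0 in 37 of 52 members (71.2%), beside 42.1% of all genes, and the median was 0.23 beside -0.10. All genes are not matched to the members in level. In Ag+Costim, 48 of the 52 members averaged 10 CPM or more, beside 9435 of the 17366 genes, and the part of level in these contrasts was not tested. For 10 members the CPM ranges of the groups were separate, all higher in Ag+Costim (19.2%; all genes 4.23% higher and 2.1% lower): Ddx1, Ddx10, Ddx19a, Ddx19b, Ddx20, Ddx21, Ddx3x, Ddx42, Ddx46 and Dhx32. DESeq2 called 12 members higher and 1 lower, beside 3.83% and 10.8% of all genes, and limma-voom with sample weights called 31 and 8, beside 31.3% and 33.2%. Without Ag 2, edgeR called 18 higher (all genes 5.33% higher and 9.47% lower), and without Ag 5 it called 13 higher and 1 lower (all genes 4.17% and 15.6%). Without Ag 3 it called 1 member higher, beside 44 higher and 71 lower of 17531 genes. This comparison shares the Ag libraries with the preceding one, so their values are not independent.

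Ag+Costim was also compared with Naive, where 9 members rose (17.3%) and 9 fell (17.3%), beside 21% of all genes higher and 23.6% lower. The share of members called was thus not above that of all genes in either direction. Those that rose were Ddx39, Ddx1, Ddx19a, Ddx39b, Ddx28, Ddx20, Ddx19b, Dhx32 and Ddx52, and those that fell were Ddx60, Ddx58, Ddx23, Ddx5, Dhx33, Ddx55, Ddx50, Dhx30 and Dhx36. Groups did not overlap for 10 members higher (19.2%) and 4 lower (7.69%), beside 22.7% and 22.3% of all genes. The log2 fold change was above 0 in 34 of 52 members, beside 46.7% of all genes. At an unadjusted p under 0.05, 10 members were higher and 10 lower (all genes 26.1% and 29.6%). With lane as a term, 2 calls remained, Ddx19a higher and Ddx58 lower, beside 258 higher and 685 lower of all 17366 genes. Within lane 3 alone 8 members were called, 6 higher and 2 lower, beside 2571 higher and 3772 lower of 18287 genes. Leaving out Naive 1 or Naive 4 gave 11 calls (5 higher, 6 lower). All genes gave 1447 higher and 2488 lower of 18006 without Naive 1, and 1413 and 2479 of 18014 without Naive 4. The calls of Dhx36, Dhx30, Ddx19b, Dhx32, Ddx55 and Ddx52 were lost in 5 to 9 of the 10 fits without 1 library.

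**Figure D2:**
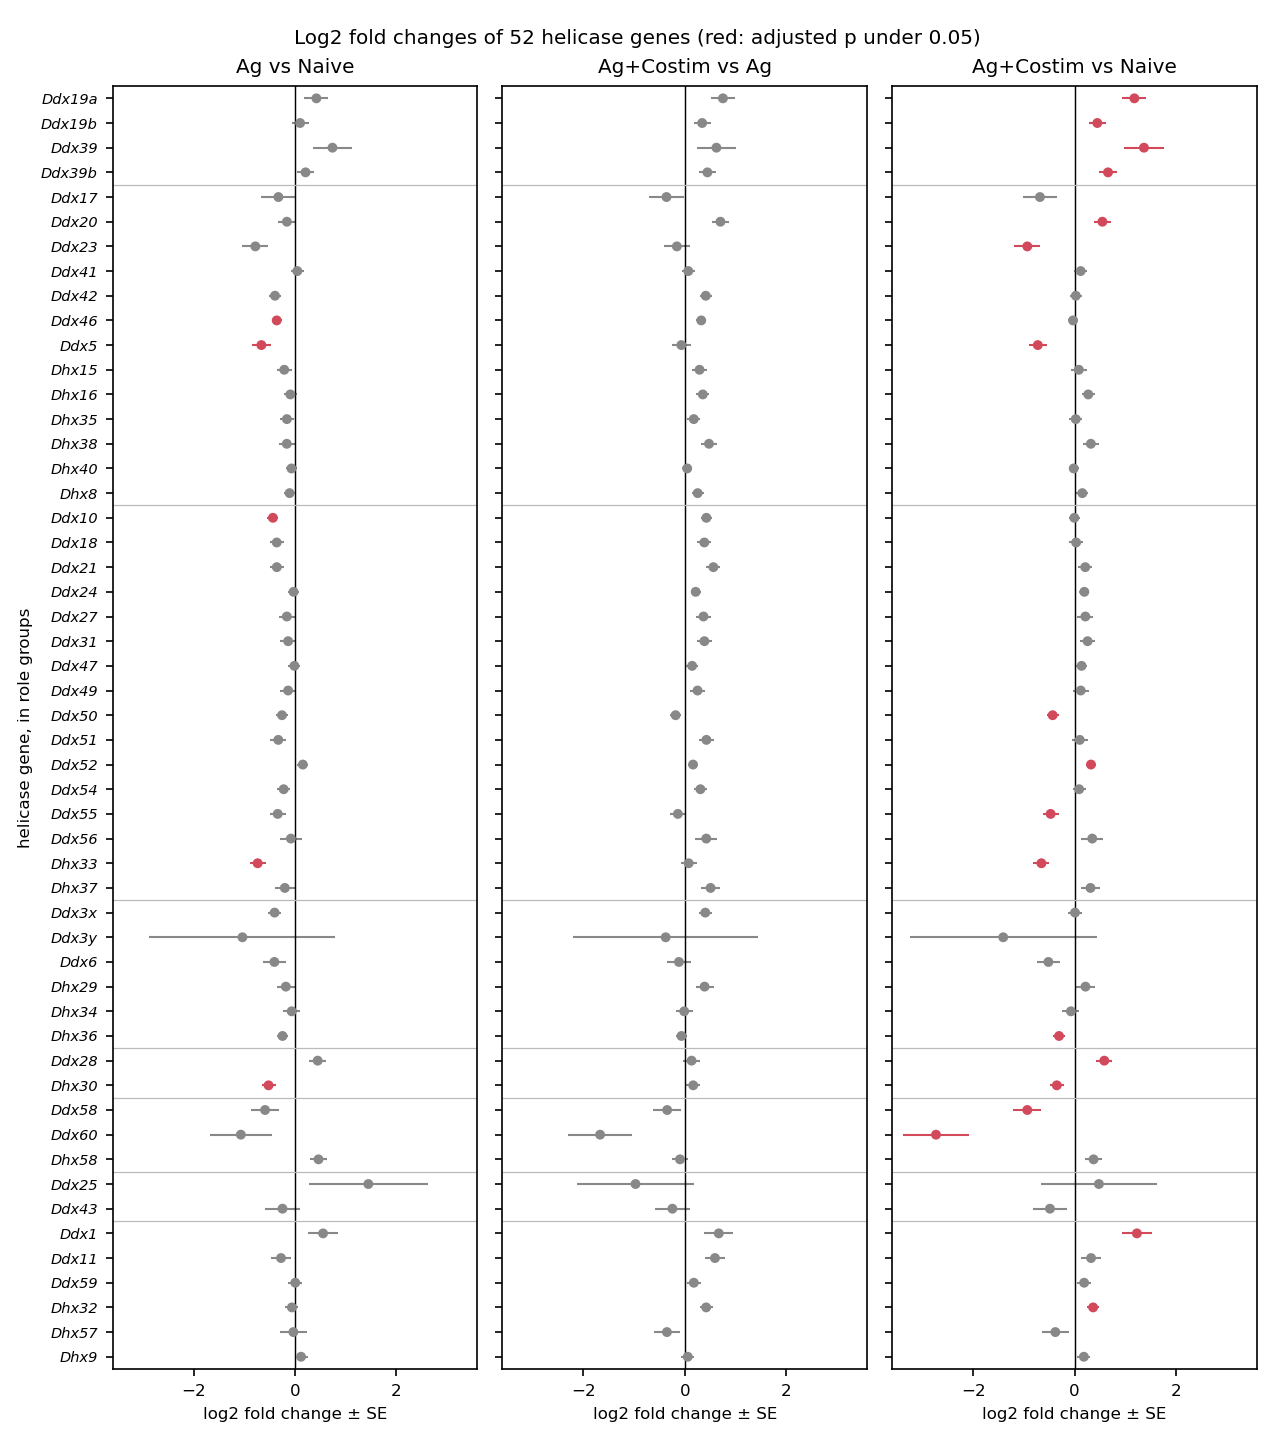
Log2 fold change (x axis, edgeR, bars are SE) of the 52 tested helicase genes (y axis) in the 3 comparisons, with genes at an adjusted p under 0.05 in red. Red points are 5 of 52 for Ag against Naive, 0 for Ag+Costim against Ag and 18 for Ag+Costim against Naive.

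The helicases of nuclear mRNA export were all higher in Ag+Costim than in Naive, 4 of 4 called beside 21% of all genes called higher, with a median log2 fold change of 0.92 beside -0.08 over all genes. The role groups were chosen with earlier results of these data known, so counts within them are descriptions and not independent tests. Ddx39 and Ddx39b stood with the splicing genes in the fixed list of genes to name, so the groups could be drawn otherwise. With lane as a term only Ddx19a of the 4 was called, and Ddx19b lost its call in 8 of the 10 fits without 1 library. Ddx39 and Ddx39b encode close relatives that load the TREX export complex onto mRNA, and Ddx19a and Ddx19b encode helicases that release export proteins from mRNA at the nuclear pore. Ddx39 (chr8:83715177-83726892, GRCm38) stood at 196, 270.5, 187, 183 and 409 CPM in Naive 1 to 5, at 156, 643, 424, 159 and 703 CPM in Ag 1 to 5 and at 632, 612, 584, 743 and 645 CPM in Ag+Costim 1 to 5. Ag 2 and 5 lay within the Ag+Costim range and Ag 1 and 4 below every Naive library, so that Ag overlapped both other groups, which did not overlap each other. The log2 fold change of Ag+Costim against Naive was 1.37 ± 0.39, adjusted p = 0.017, and that against Ag was 0.63 ± 0.39, adjusted p = 0.31. Of the 5200 windows of 50 bases in Ddx39, 677 occur in another gene, 659 of them in Adgre5, which overlaps it on the opposite strand, and the library kit does not mark strand.

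Ddx39b was at 212, 187, 221, 196 and 261 CPM in Naive, 187, 283, 245, 171 and 361 CPM in Ag and 344, 329.7, 325, 367 and 335 CPM in Ag+Costim. Ag 5 lay within the Ag+Costim range, Ag 2 and 3 between the other groups' means and Ag 1 and 4 below the lowest Naive library. The log2 fold change of Ag+Costim against Naive was 0.66 ± 0.18, adjusted p = 0.013.

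Ddx19a (chr8:110974996-110997800) was at 16.8, 18.7, 22.3, 18.8 and 40.9 CPM in Naive, 23.1, 30.8, 44, 24.4 and 36 CPM in Ag and 50.2, 52.6, 50.3, 55.5 and 57.3 CPM in Ag+Costim. Every Ag+Costim library lay above every other library, and Naive 5 lay well above the other Naive libraries. Ag+Costim differed from Naive by 1.18 ± 0.24, adjusted p = 0.0047, a call kept in all 10 fits without 1 library and in all 11 other alternatives, and from Ag by 0.75 ± 0.24, adjusted p = 0.086. Its neighbour Ddx19b was at 22.8, 24.2, 24.8, 22.9 and 43.1 CPM in Naive, 24.5, 30.5, 34.2, 27.8 and 31.3 CPM in Ag and 36.4, 37.3, 37.8, 39.7 and 36.5 CPM in Ag+Costim, a log2 fold change against Naive of 0.45 ± 0.17, adjusted p = 0.043. Naive 5 again stood apart and lay above every Ag+Costim library. The genes share 28.1% of the 50-base windows of Ddx19a and 12.4% of those of Ddx19b, so reads could be split between them.

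**Figure D3:**
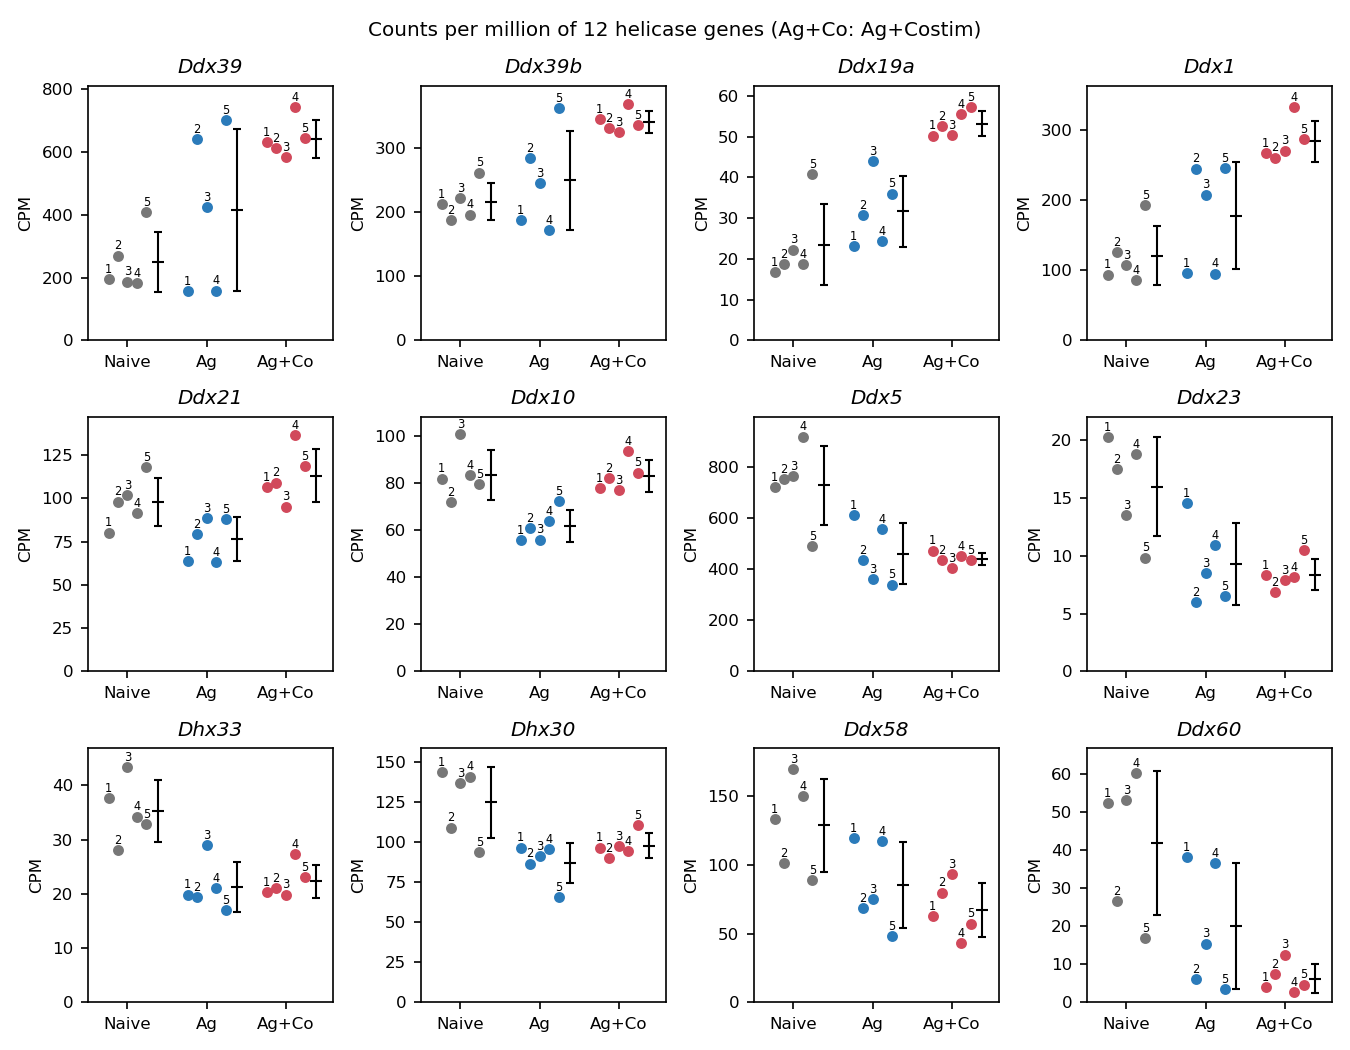
CPM (y axis) of 12 helicase genes in Naive, Ag and Ag+Costim (x axis), each point a library numbered by replicate, with the mean and SD as bars. The means of Ddx39, Ddx39b, Ddx19a and Ddx1 are highest in Ag+Costim, those of Ddx5, Ddx23, Ddx58 and Ddx60 are highest in Naive, and the Ag points of Ddx39 run from 156 to 703.

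Among the 16 helicases of nucleolar ribosome assembly, the log2 fold change was below 0 in 15 for Ag against Naive (median -0.21, all genes 0.08) and above 0 in 14 for Ag+Costim against Ag (median 0.34, all genes -0.10). Those called were Ddx10 and Dhx33, lower in Ag than in Naive, Ddx52, higher in Ag+Costim than in Naive, and Dhx33, Ddx50 and Ddx55, lower. Ddx21, which couples ribosomal RNA transcription with processing, was at 80.1, 98.1, 102, 91.6 and 118 CPM in Naive, 63.8, 79.4, 88.6, 63.1 and 87.8 CPM in Ag and 107, 109, 95.2, 136 and 119 CPM in Ag+Costim. The lowest Ag+Costim library lay above the highest Ag library. The log2 fold changes were 0.56 ± 0.14, adjusted p = 0.081 for Ag+Costim against Ag and -0.36 ± 0.14, adjusted p = 0.12 for Ag against Naive, neither past the threshold. Ddx10 was at 81.8, 71.8, 101, 83.2 and 79.6 CPM in Naive, 55.8, 60.7, 56, 63.8 and 72.4 CPM in Ag and 77.9, 82, 77.1, 93.6 and 84.4 CPM in Ag+Costim. The Ag values lay below every Ag+Costim value and overlapped Naive in range, and Ag+Costim differed from Ag by 0.43 ± 0.11, adjusted p = 0.081.

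Dhx33 (chr11:70984091-71004437) was lower in both transferred groups. It stood at 37.7, 28.1, 43.3, 34.2 and 32.9 CPM in Naive, 19.9, 19.4, 29, 21.1 and 17 CPM in Ag and 20.3, 21.1, 19.9, 27.3 and 23.1 CPM in Ag+Costim. All Ag+Costim libraries lay below all Naive libraries, whereas Ag overlapped Naive. The log2 fold change of Ag+Costim against Naive was -0.66 ± 0.16, adjusted p = 0.0089. Ddx50, a close relative of Ddx21, fell by the same comparison from 117 ± 14.9 to 86.4 ± 6.14 CPM (SD, n = 5; -0.44 ± 0.12, adjusted p = 0.013), and Ddx55, a large-subunit assembly factor, from 31.3 ± 6.53 to 22.5 ± 3.19 CPM (-0.48 ± 0.16, adjusted p = 0.028). Ddx52, a small-subunit assembly factor, rose from 88.8 ± 8.06 to 111 ± 4.82 CPM (0.32 ± 0.11, adjusted p = 0.028). Ddx27, Ddx56 and Dhx37, also ribosome assembly factors, passed in no comparison. Their levels were 93.3 ± 8.34, 83.6 ± 22 and 108 ± 8.53 CPM for Ddx27, 76.3 ± 5.22, 72.2 ± 31.8 and 97 ± 8.11 CPM for Ddx56 and 24.7 ± 5.55, 21.6 ± 6.01 and 30.7 ± 2.41 CPM for Dhx37, in Naive, Ag and Ag+Costim. Ddx24, the most abundant nucleolar member per length, was at 225 ± 22.1, 221 ± 24.1 and 257 ± 12.3 CPM in the same order. Ddx18, another large-subunit factor, was at 59.5 ± 7.27, 46.4 ± 9.72 and 60.7 ± 6.14 CPM in that order and was called in no comparison. Of its 2480 windows of 50 bases, 1386 occur in another gene, 1275 of them in Gm16433, so its level is uncertain.

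Of the 13 helicases of splicing, 12 had a log2 fold change below 0 in Ag against Naive (median -0.16, all genes 0.08) and 10 had one above 0 in Ag+Costim against Ag (median 0.25, all genes -0.10). Ddx5 (chr11:106780355-106789185), which acts in splicing and as a transcription cofactor, was at 719, 751, 763, 918 and 489 CPM in Naive, 612, 435, 359.6, 556 and 339 CPM in Ag and 472, 435, 403, 451 and 437 CPM in Ag+Costim. The Ag+Costim libraries all lay below the Naive libraries, a log2 fold change of -0.73 ± 0.18, adjusted p = 0.011. Of its 5963 windows of 50 bases, 868 occur in another gene, 795 of them in Gm12183. Ddx17, the closest relative of Ddx5, was at 71.6 ± 25.3 CPM in Naive, 57.1 ± 32.6 CPM in Ag and 44.5 ± 4.52 CPM in Ag+Costim (SD, n = 5), and its fold change against Naive did not pass the test (-0.69 ± 0.34, adjusted p = 0.11 for Ag+Costim).

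Ddx23, the helicase that hands the 5′ splice site from U1 to U6, was at 20.2, 17.5, 13.5, 18.8 and 9.84 CPM in Naive, 14.6, 5.99, 8.49, 11 and 6.51 CPM in Ag and 8.35, 6.83, 7.87, 8.18 and 10.5 CPM in Ag+Costim. Naive was spread widely and the groups overlapped in range, while the log2 fold change of Ag+Costim against Naive was -0.94 ± 0.25, adjusted p = 0.014. Ddx46 was at 166, 163, 134, 165 and 148 CPM in Naive, 122, 130.4, 118, 118 and 115 CPM in Ag and 166, 154, 132, 163 and 143 CPM in Ag+Costim. The Ag libraries were below all others. Ddx20, the Gemin3 protein of the SMN complex that assembles splicing particles, rose from 45.4 ± 7.34 CPM in Naive to 66.3 ± 5.51 CPM in Ag+Costim (0.55 ± 0.17, adjusted p = 0.024), with Ag at 40.7 ± 11.1 CPM. Ddx42, a helicase tied to the U2 particle, was at 136, 105, 147, 145 and 138 CPM in Naive, 98.9, 98.7, 119, 112 and 83.3 CPM in Ag and 135, 129, 129, 156 and 132 CPM in Ag+Costim. Every Ag library lay below every Ag+Costim library (0.41 ± 0.12, adjusted p = 0.083), and Naive 2 stood below the rest of its group. Dhx8 and Dhx38, which drive later spliceosome steps, had mean levels of 88.5, 82.4 and 98.3 CPM and of 49.8, 44.7 and 62.2 CPM in Naive, Ag and Ag+Costim, and Ddx41, a spliceosomal DEAD-box protein, 88.8, 91.8 and 96.3 CPM. No comparison of these 3 genes passed the test. Dhx15, which takes apart spent spliceosomes, was at 267 ± 42.3, 231 ± 49.1 and 282 ± 22.3 CPM in Naive, Ag and Ag+Costim, with no fold change past the threshold.

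The start regions of Ddx5 and Dhx33, called lower than Naive in both transferred groups, each hold the E-box CACGTG, a site that MYC family proteins can bind. They are shown because both genes were called lower in Ag and in Ag+Costim. The call in Ag against Naive was lost in 7 of the 10 fits without 1 library for Ddx5 and in 2 of 10 for Dhx33. Dhx30, the third member called lower in both, has no E-box in its windows. Bases are from RefSeq (GRCm38.p6), minus strand, with the E-box in capitals.
Ddx5, chr11:106788922-106788947: tgggtccgatCACGTGatgaggccaa
Dhx33, chr11:71004452-71004477: agcacgcctgCACGTGgcgagaaagg
Windows from 250 bases before to 50 after the start were found for 47 of the 53 members. CACGTG, which reads the same on both strands, lay in those of 7 members (14.9%), beside 8.09% of 27025 genes. The other 5 were Ddx25, Ddx4, Ddx42, Dhx35 and Dhx40, of which Ddx4 was not tested and the others were called in no comparison. A match describes letters in a window and not a bound site.

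Of the 3 helicases that detect or respond to viral RNA, 2 fell in Ag+Costim against Naive, beside 23.6% of all genes. Ddx60 (chr8:61928087-62038244), an interferon-induced cofactor of RIG-I, was at 52.4, 26.7, 53.3, 60.2 and 16.8 CPM in Naive, 38.3, 6.06, 15.5, 36.6 and 3.51 CPM in Ag and 3.98, 7.48, 12.6, 2.73 and 4.66 CPM in Ag+Costim. The Ag+Costim libraries were all below the Naive libraries, a log2 fold change of -2.74 ± 0.65, adjusted p = 0.0085. Ddx58 (chr4:40203773-40239828), the gene of RIG-I itself, was at 133, 101, 170.0, 150.3 and 88.9 CPM in Naive, 119, 68.6, 74.9, 117 and 48.3 CPM in Ag and 62.8, 80, 93.6, 43 and 57.3 CPM in Ag+Costim. Its groups overlapped, and the log2 fold change of Ag+Costim against Naive was -0.94 ± 0.27, adjusted p = 0.018. Dhx58, the gene of LGP2, a regulator of RIG-I signalling, was at 28.2, 27.3, 33.2, 34 and 31.5 CPM in Naive and 50.5, 38.4, 35.1, 49.8 and 39.2 CPM in Ag, where every Ag library was higher. It did not pass the test (0.47 ± 0.16, adjusted p = 0.085), and with lane as a term the log2 fold change was -0.03. In Ag+Costim it was at 37.4, 43.2, 54.9, 31.9 and 32.3 CPM.

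Of 10 interferon pathway genes taken for comparison, 5 fell in Ag+Costim against Naive and none rose, beside 23.6% of all genes lower and 21% higher. The 5 were Ifit1, Ifit3, Oasl2, Irf7 and Rsad2. The median log2 fold change of the 10 was -0.74, beside -0.08 over all genes. In the other comparisons edgeR called none of the 10 (unadjusted p under 0.05 in 3 for Ag against Naive, beside 15.2% of all genes higher and 13.5% lower, and in 0 for Ag+Costim against Ag). Start regions of Ddx60 and Ddx58 hold the core of the interferon response element, a pair of GAAA blocks separated by any NN, searched on both strands, and they are shown because both genes fell in Ag+Costim against Naive. Bases are from RefSeq (GRCm38.p6), read along the gene's strand, with the element or its reverse complement in capitals.
Ddx60, chr8:61928024-61928053, plus strand: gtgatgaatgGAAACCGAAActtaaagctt
Ddx60, chr8:61928058-61928087, plus strand: gagcagaagaGAAACCGAAActatccttca
Ddx58, chr4:40239804-40239833, minus strand: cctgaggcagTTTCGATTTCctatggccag
The element lay in the windows of 3 of 47 members (6.38%), beside 3.99% of all genes, with those of Ddx60 just before the start of the gene and that of Ddx58 in its first bases, and the third was Ddx49, a ribosome assembly factor called in no comparison.

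Of the 6 helicases of translation and mRNA decay, all had a log2 fold change below 0 in Ag against Naive, with a median of -0.32 beside 0.08 over all genes and 1 at an unadjusted p under 0.05. Dhx36, which unwinds G-quadruplexes, fell from 80.9 ± 9.46 CPM in Naive to 65.3 ± 7.95 CPM in Ag+Costim (-0.31 ± 0.12, adjusted p = 0.045). Ddx6, a cofactor of decapping, was at 152 ± 35.1 CPM in Naive, 115 ± 42.4 CPM in Ag and 106 ± 11.9 CPM in Ag+Costim, with -0.52 ± 0.23, adjusted p = 0.081 for the last against the first. Ddx3x, an initiation helicase, was at 170.3, 208, 216, 179.9 and 271 CPM in Naive, 134, 170.3, 184, 147 and 158 CPM in Ag and 210.5, 192, 196, 219 and 232 CPM in Ag+Costim. The Ag libraries lay below all Ag+Costim libraries (0.41 ± 0.13, adjusted p = 0.091). Dhx29, which helps the small ribosomal subunit scan structured leaders, was at 35.2, 39.9, 42.3, 41.3 and 63.5 CPM in Naive, 30.7, 40.9, 55.1, 31.6 and 38.6 CPM in Ag and 46.8, 46.5, 52.4, 53 and 58.8 CPM in Ag+Costim, with Naive 5 above the other Naive libraries and no comparison past the threshold. The Y-linked copy of Ddx3x, Ddx3y, was at 24 to 114 CPM in the 6 libraries recorded as male and at 0 to 3.69 CPM in the 9 recorded as female, with 3 female and 2 male libraries in each group.

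Ddx1, a subunit of the tRNA ligase complex, was at 93.7, 126, 107, 86.1 and 192 CPM in Naive, 95.9, 245, 208, 95.2 and 246 CPM in Ag and 267, 260.3, 270.2, 332 and 287 CPM in Ag+Costim. All Ag+Costim libraries were above all libraries of the other groups, with a log2 fold change against Naive of 1.23 ± 0.29, adjusted p = 0.0087 and against Ag of 0.67 ± 0.29, adjusted p = 0.16. Dhx32, a less studied DEAH protein, rose from 43.4 ± 6.23 CPM in Naive to 55.9 ± 2.80 CPM in Ag+Costim (0.36 ± 0.13, adjusted p = 0.032). Dhx9, a nuclear helicase of many roles, was at 47.6 ± 7.12, 51.9 ± 7.37 and 54 ± 5.29 CPM in Naive, Ag and Ag+Costim. The germ line helicases were near the limit of detection: Ddx4 failed the filter on low counts, and Ddx25 and Ddx43 reached at most 5.44 and 4.89 CPM. A further 12 members were called in no comparison: Ddx31, Ddx47, Ddx49, Ddx51, Ddx54, Dhx16, Dhx34, Dhx35 and Dhx40 of the ribosome, splicing and decay groups and Ddx11, Ddx59 and Dhx57. Their mean levels ran from 16.6 CPM (Ddx59 in Naive) to 148 CPM (Ddx47 in Ag+Costim).

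The mitochondrial helicases moved apart. Ddx28, a factor of mitochondrial ribosome assembly, rose from 20.7 ± 3.95 CPM in Naive to 31.1 ± 2.14 CPM in Ag+Costim (0.58 ± 0.16, adjusted p = 0.015). Dhx30, found in mitochondrial RNA granules, was at 144, 109, 137, 141 and 93.8 CPM in Naive, 96.7, 86.7, 91.2, 95.6 and 66 CPM in Ag and 96.7, 90, 97.5, 94.5 and 111 CPM in Ag+Costim. Its groups overlapped, and the log2 fold change of Ag+Costim against Naive was -0.35 ± 0.14, adjusted p = 0.049. That call was lost with the replicate number as a block and in several other alternatives.

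Dhx30 was followed to its transcripts. GENCODE M21 lists 26, of which 16 are protein_coding, 5 retained_intron, 4 processed_transcript and 1 a target of nonsense-mediated decay. An intron of 329 bases (33.7% GC) is spliced in 6 of the transcripts that span it and kept in 3, Dhx30-219, Dhx30-221 and Dhx30-208. Its ends are shown because the transcripts differ by it, on the minus strand of GRCm38, with the bases GT and AG at the splice sites in capitals.
5′ end, chr9:110115477-110115500: cttttataagGTaaggtgacttag
3′ end, chr9:110115154-110115181: tgaatctcatattttttgAGatgaagac
The share of Dhx30 counts on transcripts other than protein_coding was 0.197, 0.221, 0.0975, 0.251 and 0.229 in Naive, 0.180, 0.126, 0.303, 0.258 and 0.0465 in Ag. It was 0.110, 0.0488, 0.0605, 0.0659 and 0.0559 in Ag+Costim. The Ag libraries spanned the whole range, and Naive 3 lay below Ag+Costim 1, so no pair of groups was separate. Means were 0.199 ± 0.060, 0.183 ± 0.103 and 0.0682 ± 0.024 (SD, n = 5). Exact 95% binomial intervals of single libraries, which treat the estimated counts as reads, were 0.0195 to 0.0902 wide and cover counting error only.

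Ag+Costim was lower than Naive by 0.131 (two-sided exact permutation p = 0.0159, adjusted over 3 comparisons 0.0476), and lower than Ag by 0.115 (exact p = 0.0556, adjusted 0.0833). Ag differed from Naive by -0.0164 (exact p = 0.786, adjusted 0.786). The adjusted p of Ag+Costim against Naive was 0.0714 without Ag+Costim 2, 3, 4 or 5, 0.0833 within lane 3 and 0.1875 with replicates paired. With replicates paired the smallest exact p possible is 0.0625. Within lane 3 the exact p was 0.0476, the smallest possible with 2 against 5 libraries. Given the p-values of the other comparisons, neither setting could pass after adjustment. Without Ag 5, the Ag library with the lowest share, the difference of Ag+Costim from Ag was -0.149 with an adjusted exact p of 0.0238. The other fits of this comparison without 1 library gave adjusted exact p-values of 0.0833 to 0.155. Pairing of replicates and lane 2 alone each gave 0.1875. The share of transcripts that keep the intron, among those that keep or splice it, took in the protein_coding Dhx30-219. Its mean was 0.310 ± 0.202 in the Naive, 0.225 ± 0.126 in the Ag and 0.318 ± 0.239 in the Ag+Costim libraries. Ag+Costim was higher than Naive by 0.0081 (exact p = 0.960), opposite in direction to the share above. None of 21 exact tests of single transcripts passed; the lowest p was 0.0159 (adjusted 0.333), for Dhx30-208 in Ag+Costim against Naive.

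**Figure D4:**
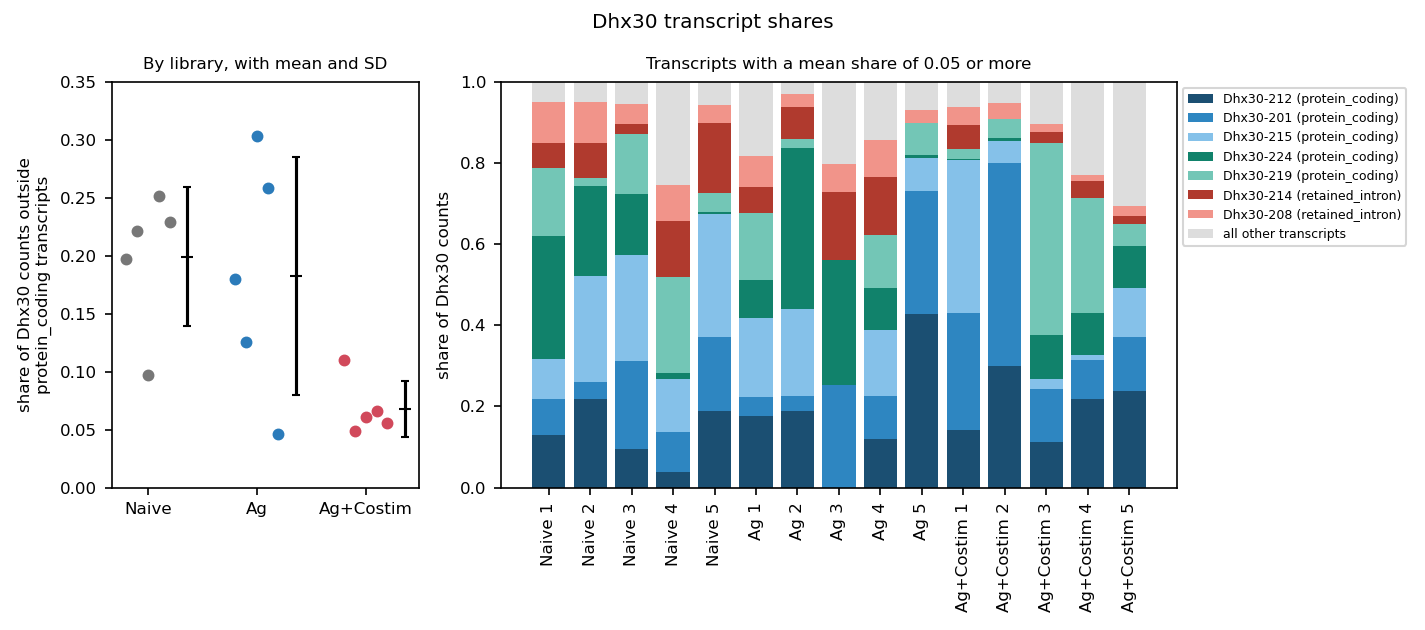
Left, share of Dhx30 counts outside protein_coding transcripts (y axis) per library by group (x axis), with the mean and SD as bars. Right, the share of each main Dhx30 transcript in each library as stacked bars. Ag+Costim sits between 0.0488 and 0.110, Naive between 0.0975 and 0.251, and Ag between 0.0465 and 0.303.

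A lower share outside protein_coding transcripts was common to most genes. It was lower in Ag+Costim than in Naive in 83.2% of the 7395 genes averaging 100 counts or more, and in 46 of the 46 members in that set. A drop of 0.1 or more occurred in 14 of the 46 members (30.4%), beside 16.8% of all genes. Among them, the share went from 0.570 ± 0.164 to 0.284 ± 0.0657 in Ddx39, from 0.522 ± 0.0643 to 0.329 ± 0.0866 in Ddx5, from 0.552 ± 0.132 to 0.384 ± 0.102 in Ddx23 and from 0.333 ± 0.111 to 0.102 ± 0.0174 in Dhx9 (Naive to Ag+Costim, SD, n = 5), each given as a description. In Ag+Costim against Ag the share was lower in 40 of 46 members, beside 80.9% of all genes, and by 0.1 or more in 6 of 46, beside 9.95%. In Ag against Naive it was lower in 38 of 46, beside 62.2%, and by 0.1 or more in 6 of 46, beside 9.67%. The estimated counts as a percentage of sequenced reads were 51.9 to 52.7 in Ag+Costim, 38.2 to 46.8 in Naive and 16.9 to 53.6 in Ag. The part of this percentage in these shares was not tested.

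Transcript usage was also tested across genes. Of the 31 members that could be tested among 7501 genes, edgeR's diffSpliceDGE called 0 in each comparison, beside 0.547% of genes in Ag against Naive, 0.933% in Ag+Costim against Ag and 1.01% in Ag+Costim against Naive. At an unadjusted p under 0.05 there were 0, 2 (Dhx35 and Dhx57) and 2 (Ddx54 and Dhx57) members in that order. The share of all genes at that level was not counted. The diffSplice function of limma called 2 (Ddx47 and Ddx5), 0 and 5 (Ddx39, Ddx47, Ddx49, Ddx5 and Ddx50) members. Over all 7501 genes it called 123, 45 and 634. In fits without 1 library edgeR called a single member, Dhx9, in some of those for Ag against Naive and for Ag+Costim against Ag.

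Genes that work with these helicases were measured for context. Of 20 tested RNA helicases outside the DDX and DHX names, 2 rose and 8 fell in Ag+Costim against Naive, beside 21% and 23.6% of all genes. Those that rose were Eif4a1, the helicase of cap-dependent initiation, from 328 ± 41.7 to 604 ± 51.1 CPM, and Eif4a3 of the exon junction complex, from 187 ± 44.7 to 337 ± 19 CPM. Eif4a2, a paralog of Eif4a1, went the other way, from 236 ± 74.1 to 88.3 ± 8.45 CPM (log2 fold change -1.42 ± 0.26, adjusted p = 0.0032). In Ag against Naive, 2 of the 20 fell, Eif4a2 and Ascc3, and none rose, beside 3.66% and 3.05% of all genes. Among 34 cofactors of helicases, 9 rose and 1 fell in Ag+Costim against Naive, beside the same 21% and 23.6% of all genes. The 9 included Gle1, which stimulates the DDX19 proteins, from 105 ± 13.2 to 143 ± 6.38 CPM, and the export subunits Thoc5, Thoc6, Thoc7 and Sarnp, while Gpatch2 fell. In Ag against Naive 2 cofactors fell, Gpatch4 and Thoc1, again beside 3.66% of all genes. In Ag+Costim against Ag edgeR called 0 of either list, with 6 of the 20 helicases and 10 of the 34 cofactors at an unadjusted p under 0.05 in either direction, beside 7.28% of all genes higher and 19.5% lower.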

How the data were processed

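The cDNA of poly(A) RNA (SMART-Seq v4, Nextera XT, which does not mark strand) was sequenced as single reads. The deposited lane annotation gives a read length of 50 bases, which differs from that in the study's methods. Per the labels and methods, the authors aligned reads to mm10 with HISAT2 2.1.0 and SAMtools 1.9 and assembled them with StringTie 2.1.0; they tested with DESeq2 1.30.1 in R 4.0.5. The deposited gene and transcript tables hold StringTie estimated counts (expected counts, whole numbers), and the deposited lane annotation lists sequenced read counts by library. A deposited FPKM table was not used, since the columns of Ag 1 and Naive 5 are identical in it.

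Of 81881 gene entries, 55536 matched GENCODE M21 (GRCm38); 26248 number-only entries with 0.0818% of counts were left out. Totals were 4865952 to 25280667 counts, which set the precision. CPM used the total over matched genes. edgeR 4.0.16 (R 4.3.3) quasi-likelihood tests (TMM, filterByExpr, 17366 genes, all 15 libraries) gave log2 fold changes and Benjamini-Hochberg adjusted p-values, called under 0.05. They were tested on simulated data first. Alternatives used DESeq2 1.42.0 and limma 3.58.1, among others. Dhx30 shares were compared by two-sided exact permutation tests. Members, role groups and gene lists were chosen with earlier results of these data known. Genes are named by a fixed list and as the 6 highest and 6 lowest called members per comparison; any other gene was named after its values were seen. Whether replicate numbers pair the libraries is not settled, since the labels do not say. Correlations of same-numbered libraries were mixed, from -0.32 to 0.47 between Ag and Naive, and recorded sex followed the replicate number in every group. The main tests left the libraries unpaired.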

Additional observations from a re-analysis of the deposited data

Results flagged for a closer look

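Single libraries stood apart from the other 4 of their group, by Dixon's 95% criterion on the gap to the nearest library, in 8 of 105 tested groups; chance alone gives about 1 in 20. Naive 5 was the high library in 4 of them: Ddx19a at 40.9 CPM against 16.8 to 22.3 in the others, Ddx19b at 43.1 against 22.8 to 24.8, Dhx29 at 63.5 against 35.2 to 42.3, and Dhx38 at 71.5 against 41.8 to 47.0. Ag+Costim 4 was high for Ddx42, at 156 CPM against 129 to 135, and for Ddx56, at 111 CPM against 91.3 to 95.6. Naive 2 was low for Ddx42, at 105 CPM against 136 to 147. The share of Dhx30 counts outside protein_coding transcripts was 0.110 in Ag+Costim 1 against 0.0488 to 0.0659 in the other Ag+Costim libraries.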

How the results depend on the processing

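Called members for Ag against Naive (5 as reported) were 0 with no filter, with only the 2 groups in the fit or with a lane term, 1 with genes on chromosomes only (chosen after seeing the data), 11 with DESeq2 and 19 with limma-voom. All genes called higher and lower were 49 and 159 of 48994 with no filter, 0 and 6 of 16742 with 2 groups, and 0 with a lane term. They were 460 and 468 of 17339 on chromosomes only, 1281 and 1497 of 14968 with DESeq2, and 1873 and 2147 of 17366 with limma-voom. For Ag+Costim against Ag (0) the called members were 13 with DESeq2 and 39 with limma-voom. All genes there gave 664 higher and 1869 lower of 17321, and 5437 and 5758 of 17366. For Ag+Costim against Naive (18) the called members were 6 with no filter, 2 with a lane term, 8 within lane 3 and 34 with limma-voom. All genes there gave 2409 and 1749 of 48994 with no filter and 258 and 685 of 17366 with a lane term. They gave 2571 and 3772 of 18287 within lane 3, and 6418 and 7107 of 17366 with limma-voom. Leaving out 1 library gave 0 to 11, 0 to 18 and 11 to 19 called members for the 3 comparisons in that order. All genes in those fits gave 92 to 2270 higher and 163 to 1601 lower for Ag against Naive. They gave 0 to 965 and 0 to 2817 for Ag+Costim against Ag, and 1413 to 4604 and 2191 to 4560 for Ag+Costim against Naive. The 19 members came without Naive 5, beside 4604 higher and 4560 lower of 17981 genes. With the replicate number as a block they were 6, 0 and 16, with Dhx30 and Dhx36 losing their call in Ag+Costim against Naive. All genes with that block gave 755 higher and 905 lower, 0, and 4066 and 3767, of 17366. Transcript usage calls (0 each) were 2 and 5 with limma for Ag and Ag+Costim against Naive, beside 123 and 634 of 7501 genes. With no filter they were 1 for Ag against Naive and 1 for Ag+Costim against Ag, beside 216 and 209 of 12321 genes. Without 1 library they were 0 to 1, 0 to 1 and 0 for the 3 comparisons.

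The Dhx30 difference of Ag+Costim from Naive was -0.131 (exact p = 0.0625) in pairs with the replicate block and -0.138 (exact p = 0.0476) within lane 3. Each p was the smallest that its test can give, so neither could pass the threshold after adjustment. The intron-keeping share, chosen after seeing the data, gave 0.0081 there and 0.0931 for Ag+Costim against Ag. Leaving out 1 library gave -0.0465 to 0.0176 for Ag against Naive, the highest without Ag 5, -0.149 to -0.0844 for Ag+Costim against Ag and -0.156 to -0.118 for Ag+Costim against Naive. Among single genes, 741 values kept direction and side of the threshold, 69 became called, 121 lost a call and 1 changed sign, Dhx58 at -0.026 for Ag against Naive with a lane term. Scaling by library totals moved the all-gene median for Ag+Costim against Naive (log2 scale) from -0.08 to -0.23, with 6 members higher and 9 lower. All genes then gave 3016 higher and 5102 lower of 17366. With genes on chromosomes only, the all-gene median was 0.01 for Ag+Costim against Naive. For Ag+Costim against Ag it was -0.02, in place of -0.10. Same-numbered libraries correlated between -0.32 and 0.47. Ag 3 had the lowest depth, 4865952 counts, which limits its low genes.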
